A study of Mus musculus with 7 samples.

Results

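The cytosolic ribosomal protein genes were the rows of the deposited gene tables whose symbol has the form Rpl or Rps followed by a number, or names a stalk protein (Rplp0, Rplp1 or Rplp2), and whose locus spans at least 300 bp. This rule took 79 of the 37468 rows of each table, 48 for proteins of the large subunit and 31 for proteins of the small subunit. Pseudogenes and predicted genes were left out by the rule, and Rpl13 and Rps4l were not analysed here. RNA from mouse liver (strain C57BL/6) had been sequenced in 7 libraries. By their labels 1 library was Myod1_active, in which the muscle transcription factor gene Myod1 had been activated in SunTag-dCas9 mice, and 2 were Myod1_control, the controls of that experiment in SunTag-dCas9 mice. A further 2 were SunTag, from SunTag-dCas9 mice of another experiment, and 2 were WT, from wild-type mice. The dCas9 protein finds DNA by its guide RNA without cutting it, and SunTag is a chain of peptide tags on it that recruits activators fused to an antibody fragment. The labels give neither the promoter that drives the transgene nor the guide RNAs, their delivery, or the age and sex of the mice. The labels number libraries as replicates without saying that each is its own animal. P-values therefore describe the spread from library to library, which may be technical.

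Ribosomal proteins assemble with ribosomal RNA in the nucleolus into a small subunit, which decodes mRNA, and a large subunit, which joins amino acids. Their mRNAs are known as TOP mRNAs: they start with a C followed by an unbroken run of pyrimidines, through which mTORC1 and the RNA-binding protein LARP1 control their translation and stability. In hepatocytes, which secrete most plasma proteins, they are among the most abundant mRNAs of housekeeping genes.

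The start of the transcript is where this family shares a sequence, so start windows were read for members with large and small differences between the groups described further on. RefSeq promoters (build GRCm38.p6, 250 bases before to 50 after the annotated start) matched 58 of the 79 genes by symbol, 55 of them among those tested below. Windows run from 10 bases before the start to 20 bases from it, in the direction of transcription. They lie at chr11:114668570-114668599 (Rpl38, plus strand), chr3:90213629-90213658 (Rps27, minus strand), chr4:86857348-86857377 (Rps6, minus strand), chr7:45718061-45718090 (Rpl18, plus strand), chr7:109519185-109519214 (Rpl27a, plus strand) and chr17:33824543-33824572 (Rps28, minus strand). Capitals mark the pyrimidine tract, and in Rps28, which had no tract by the rule used, the palindrome CTCGCGAG.
Rpl38: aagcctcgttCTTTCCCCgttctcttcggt
Rps27: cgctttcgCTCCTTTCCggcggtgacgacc
Rps6: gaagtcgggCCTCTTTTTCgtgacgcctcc
Rpl18: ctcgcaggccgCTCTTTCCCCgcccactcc
Rpl27a: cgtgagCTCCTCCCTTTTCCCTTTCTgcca
Rps28: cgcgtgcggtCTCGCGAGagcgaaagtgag

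The tract was 8 bases long in Rpl38, 9 in Rps27, 10 in Rps6 and Rpl18 and 20 in Rpl27a. A tract meant a C within 10 bases of the annotated start and the C or T bases that follow it without a break. It was at least 5 bases long on the transcribed strand. The base before the C was not checked, so a tract may lie inside a longer run, as in Rpl38, where T bases precede it. A tract stood in the promoters of 35 of the 55 tested genes (63.6%) and in 30.7% of all 32851 RefSeq promoters of the same length. For the tract and the motifs below, a gene counted if any of its promoters matched. The share of all promoters counted each promoter once, so the units differ, and several promoters per gene can raise the genes' share. Other motifs were searched on both strands over the whole promoter, whatever they overlapped. CCGGAAG, the core that ETS factors such as GABPA bind, was found in 23 of the 55 (41.8%) against 8.86% of all promoters. CTCGCGAG was found in 7 (12.7%) against 0.919%, and those were Rpl10a, Rpl12, Rpl26, Rpl27a, Rps19, Rps28 and Rps6. AAGATGGCG, which holds the core of YY1 sites, was found in Rpl13a, Rpl35a and Rps27, 3 of 55 (5.45%) against 1.40%. TATAAA, the core of the TATA box, was found in 6 (10.9%) against 13.6%. A match is a description of these letters and does not show binding.

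The 250 bases before the start of Rpl38 (chr11:114668330-114668579, plus strand, GRCm38.p6) are shown because this gene had the largest difference of the large subunit in the comparison of control libraries described further on. Capitals mark CCGGAAG, which stands close to the start.
Rpl38: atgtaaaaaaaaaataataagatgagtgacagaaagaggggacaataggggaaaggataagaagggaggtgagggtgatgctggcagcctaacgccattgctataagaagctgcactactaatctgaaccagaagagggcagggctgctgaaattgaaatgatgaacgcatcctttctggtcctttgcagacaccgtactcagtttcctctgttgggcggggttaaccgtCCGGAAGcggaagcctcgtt

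Of the 79 genes, 76 reached an FPKM (fragments scaled by transcript length and library size, as the authors deposited it) of 1 in at least 1 library and were tested, 45 of the large and 31 of the small subunit. The other 3 were paralogs at or near 0. Rpl10l was listed at 0 in all 7 libraries. Rpl39l was listed at 0 to 0.0790 FPKM. Rpl3l, in the mouse known as a paralog of striated muscle, was at 0.338 FPKM in Myod1_active, at 0 and 0.0231 in the Myod1_control libraries, at 0.0883 and 0.0471 in SunTag and at 0.188 and 0.273 in WT. Myod1 itself, which checks the label, was at 3.52 FPKM in Myod1_active and listed at 0 in the other 6 libraries. The 7 hepatocyte markers with a row, which check the tissue, were present in every library and summed to 43072 FPKM in Myod1_active, 45956 and 47555 in Myod1_control, 65388 and 63909 in SunTag and 67360 and 76677 in WT.

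Summed over the 76 genes, the level was 17325 FPKM in Myod1_active and 12328 and 11387 in Myod1_control. It was 38009 and 21088 in the SunTag libraries 1 and 2 and 25919 and 24536 in the WT libraries. The 2 control libraries were thus the lowest, SunTag 1 was the highest, and SunTag 2 lay below both WT libraries. As a share of the FPKM sum over genes that span 300 bp or more, the family took 2.31% in Myod1_active, 1.64% and 1.59% in Myod1_control, 4.58% and 2.66% in SunTag and 3.30% and 3.08% in WT. The number of reads is unknown. From the values that single reads give to low genes, the depth of each library lay between 0.853 and 1 times that of Myod1_active. In bulk tissue, fewer cells of a type and less RNA per cell cannot be told apart.

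The median gene of the large subunit was at 169 FPKM in Myod1_active, at 121 and 113 in Myod1_control, at 381 and 206 in SunTag and at 261 and 228 in WT. The median gene of the small subunit was at 200.3 FPKM in Myod1_active, at 138 and 129.9 in Myod1_control, at 480.0 and 279 in SunTag and at 345 and 331 in WT. The small subunit median was the higher of the 2 in every library. The ratio of the summed FPKM of the large over the small subunit was 1.56 in Myod1_active, 1.56 and 1.58 in Myod1_control, 1.25 and 1.30 in SunTag and 1.28 and 1.34 in WT. The 3 libraries of the Myod1 experiment had the 3 highest ratios, also without Rpl13a (1.27 to 1.28 in that experiment, 1.08 to 1.17 in the SunTag and WT libraries).

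**Figure D1:**
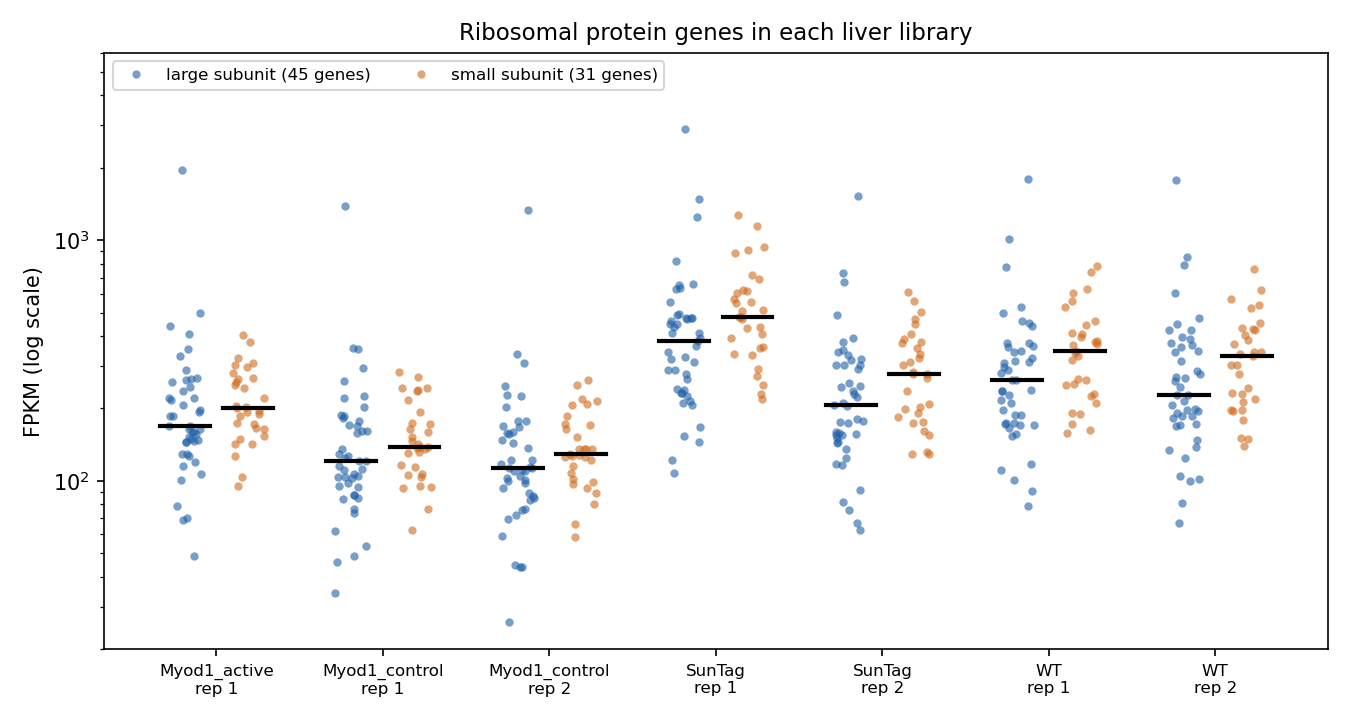
FPKM (log scale) of each of the 76 tested ribosomal protein genes in each of the 7 libraries, large subunit in blue and small subunit in orange, with a black bar at the median of each subunit. Both medians are lowest in the Myod1_control libraries (113 to 138 FPKM) and highest in SunTag replicate 1 (381 and 480.0 FPKM).

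The order of the genes was similar within an experiment. Spearman's rho over the 76 genes, a description of genes that share a library, was 0.971 to 0.984 among the 3 libraries of the Myod1 experiment and 0.987 to 0.994 among SunTag 2 and both WT libraries. Between the experiments it was 0.740 to 0.882, and SunTag 1 was at 0.918 to 0.945 with the libraries of its own experiment. Rpl13a, which also belongs to a complex that silences inflammatory mRNAs, was the highest gene in every library, at 1954 FPKM in Myod1_active, 1392 and 1334 in Myod1_control, 2907 and 1533 in SunTag and 1792 and 1788 in WT. Its locus also holds the rows of Snord32a, Snord33, Snord34, Snord35a and Flt3l, so part of its reads may belong to them. The lowest was Rpl31 in the Myod1 experiment (48.6 FPKM in Myod1_active, 34.3 and 26.0 in Myod1_control) and Rpl15 in the other libraries (108 and 62.5 in SunTag, 78.4 and 66.7 in WT).

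The comparison of Myod1_active with Myod1_control asks how liver RNA differed once Myod1 had been activated. None of the 76 ribosomal protein genes passed limma's test of log2(FPKM + 1) with Benjamini-Hochberg adjustment over all 15744 genes (background 0.216% higher and 0.0381% lower). None had an unadjusted p under 0.05, and the adjusted p-values lay between 0.260 and 0.683. A p above the threshold does not show that the levels were equal. Leaving out either SunTag library left the members' median log2 difference at 0.58. It changed the estimated spread, on which the p-values rest. The Myod1_active group held 1 library, so it had no replicate check, and its spread was taken to be that of the other groups. As values, the activated library lay above both controls for all 45 large and all 31 small subunit genes, where the background is 61.4% of genes. The ratio of FPKM, Myod1_active over the control mean, had a median of 1.50 and a range of 1.22 to 1.97. The median gene of all tested genes was itself 0.25 higher on the log2 scale, and relative to it the members' median difference was 0.33 (large 0.33, small 0.32). When low genes were not filtered out, the median gene was 0.07 higher and the members' median difference relative to it was 0.51. With a term for replicate number in the fit the members' median difference was 0.40, or 0.15 relative to the median gene. Of the 76, 64 lay above the median gene. With median-ratio scaling of the libraries 73 of 76 lay above the control mean, while Rpl27a, Rps19 and Rps9 lay below it.

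Rpl3, a core protein near the peptidyl transferase centre, had the highest ratio. It was at 119 FPKM in Myod1_active and at 61.9 and 59.1 in Myod1_control (log2 difference 0.97, SE 0.426, adjusted p = 0.287). The activated library lay far outside the gap between the controls, and the locus holds small nucleolar RNA rows. Rps13 was at 104 FPKM in Myod1_active and at 62.5 and 58.3 in Myod1_control. Rps29 was at 249 FPKM in Myod1_active and at 160.0 and 135 in Myod1_control. Rpl37, Rpl36a, Rpl23a and Rps16 were further members with large differences by the naming rule, with log2 differences of 0.74 to 0.75.

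At the low end, Rpl27a was at 221 FPKM in Myod1_active and at 185 and 177 in Myod1_control (log2 difference 0.29, SE 0.350, adjusted p = 0.659). Rps19, which in humans is the gene most often mutated in Diamond-Blackfan anaemia, was at 174 FPKM in Myod1_active and at 146 and 136 in Myod1_control. Rps9, a small subunit protein near the mRNA entry, was at 280.4 FPKM in Myod1_active and at 242 and 207 in Myod1_control. These 3 still lay above both controls, by margins close to the gap between the control libraries for Rps9. Rps6, the substrate of S6 kinase, was at 165 FPKM in Myod1_active and at 107 and 108 in Myod1_control, and had the lowest adjusted p of the family (0.260).

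The level of the activated library also lay below all SunTag and WT libraries for many members. In 55 of 76, 31 large and 24 small, it stood between the controls below it and those 4 libraries above it (background 15.3%). The exceptions, where the activated library reached into or above the range of SunTag and WT, included Rpl3, Rpl27a, Rpl29, Rpl18 and Rps6. Rpl29, a heparin-binding protein of the large subunit, was at 106 FPKM in Myod1_active, 73.3 and 69.4 in Myod1_control, 122 and 81.8 in SunTag and 101 and 99.6 in WT. Rpl18 was at 499 FPKM in Myod1_active, 356 and 309.6 in Myod1_control, 634 and 489 in SunTag and 529 and 606 in WT.

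**Figure D2:**
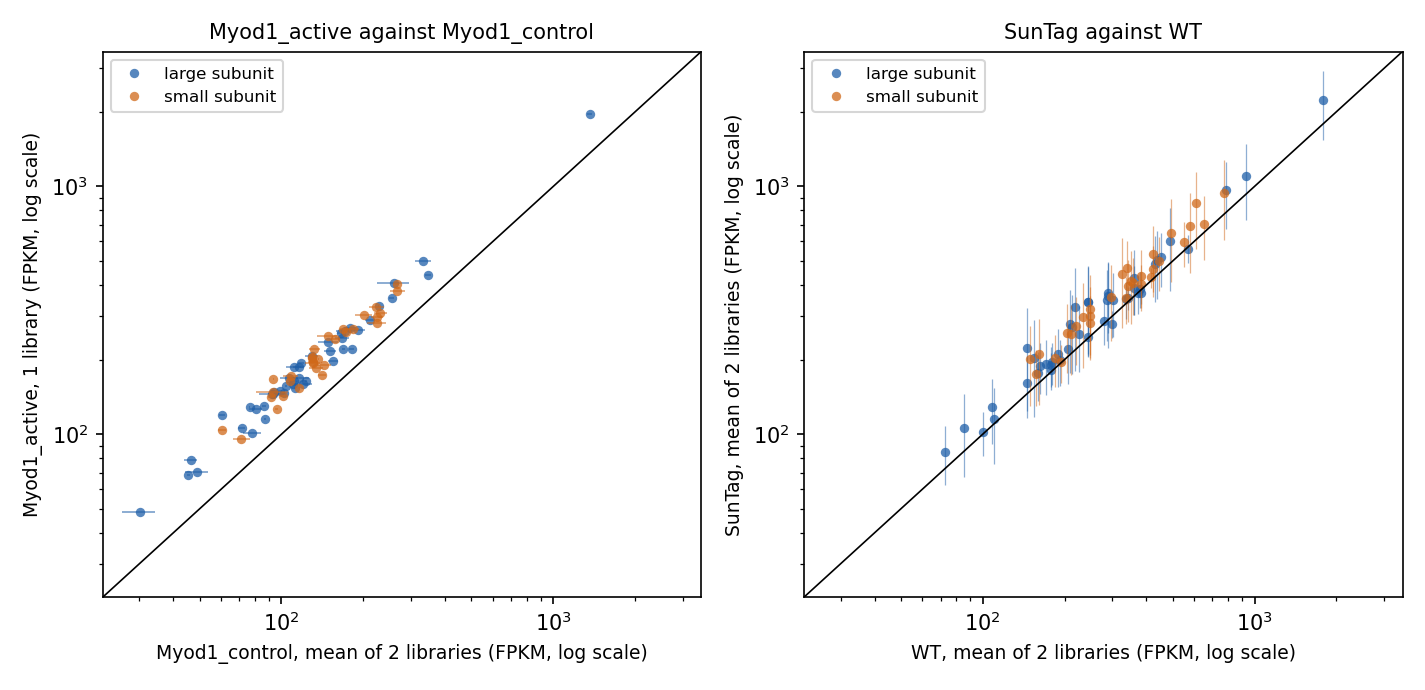
Level of each tested ribosomal protein gene (FPKM, log scales) in Myod1_active against the Myod1_control mean on the left, and in the SunTag mean against the WT mean on the right. Thin lines join the 2 control libraries on the left and the 2 SunTag libraries on the right, and the diagonal marks equal levels. All 76 points lie above the diagonal on the left (73 with median-ratio scaling), and on the right both WT libraries lie between the 2 SunTag libraries for 74 of 76 genes.

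The comparison of SunTag with WT asks whether carrying the SunTag-dCas9 transgene changed the liver. No ribosomal protein gene passed limma's test (background 0.0508% higher and 0.0762% lower), none had an unadjusted p under 0.05, and every adjusted p was 1. In no member did the groups fail to overlap (background 13% higher and 12.8% lower). The 2 SunTag libraries stood on either side of WT: SunTag 1 was above SunTag 2 in 76 of 76 (background 51.3%), and both WT libraries lay between them in 74 of 76 (background 13.8%). The exceptions were Rpl6 and Rps27l. SunTag 1 was the highest of the 7 libraries for every member except Rpl6, at 313 and 245 FPKM in SunTag and 279.7 and 316 in WT. The median log2 difference was 0.15 (0.13 relative to the median gene). It turned with the library left out, to -0.25 relative to the median gene without SunTag 1 and to 0.54 without SunTag 2.

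Rpl39, a protein of the nascent chain exit tunnel, had the largest difference in this comparison. It was at 322 and 124 FPKM in SunTag and at 165 and 125 in WT (log2 difference 0.48, SE 0.476). Rps14 was at 1147 and 560.0 FPKM in SunTag and at 603 and 619.9 in WT (0.39, SE 0.352). In both genes SunTag 1 alone lay above WT. SunTag 2 lay below both WT libraries in Rps14, and in Rpl39 it was nearly level with WT 2 (124.4 against 124.8 FPKM). Rps27l, a paralog of Rps27 known as a p53 target, was at 601 and 336 FPKM in SunTag and at 341 and 336 in WT (0.41, SE 0.294). Its partner Rps27 was at 889 and 409 FPKM in SunTag and at 529.8 and 452 in WT (0.30, SE 0.382). The red cell markers, 8 genes led by the globins, summed to 6392 FPKM in SunTag 1 and 3921 in SunTag 2, against 2337 and 2358 in WT, so they were also highest in SunTag 1. The same held for sums of macrophage (382 and 257 FPKM in SunTag, 236 and 279 in WT), lymphocyte (24.5 and 12.2 in SunTag, 15.7 and 11.9 in WT) and stellate cell markers (124 and 70.2 in SunTag, 69.8 and 71.2 in WT), and not for endothelial markers (172 and 189 in SunTag, 187 and 175 in WT). Their part in the values of SunTag 1 was not tested.

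The comparison of Myod1_control with SunTag sets the controls of the Myod1 experiment against SunTag mice of the other experiment. It serves as background, since experiment, handling and sex cannot be told apart in it. Xist, the RNA of the inactive X chromosome, was at 0.00420 to 0.324 FPKM in the Myod1 experiment and at 56.9 to 82.2 in SunTag and WT. Ddx3y, a Y-linked gene, was at 6.97 to 9.23 FPKM in the Myod1 experiment and at 0 to 0.0765 in SunTag and WT. Ribosomal protein genes were lower in the Myod1_control libraries: limma called 51 of 76 lower and none higher (background 17% lower and 7.3% higher), 29 of 45 in the large and 22 of 31 in the small subunit. In 74 of 76 both controls lay below both SunTag libraries (background 41.6%), the exceptions being Rpl10a and Rpl27a. The ratio of FPKM had a median of 0.417 and a range of 0.157 to 0.824. Relative to the median gene, which was at -0.14 on the log2 scale, the members' median difference was -1.05 (large -0.98, small -1.21).

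The 51 calls rest on the spread estimated from few libraries. Without either control library or either WT library limma called 0 of 76, with 39 to 58 at an unadjusted p under 0.05. Without SunTag 1 it called 26, and without SunTag 2 it called 75. Over all genes the lower calls moved likewise: 2683 in the fit of all libraries, 32 and 39 without a control library and 35 without either WT library. A fit of the 2 groups alone called 0 members, with 64 at an unadjusted p under 0.05. In that fit 5452 of 15162 tested genes were also under 0.05. In the fit of all libraries 70 of 76 members and 6565 of 15744 genes had an unadjusted p under 0.05.

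The largest differences were in genes with short coding sequences. Rps29, a zinc-binding protein of the small subunit, was at 160.0 and 135 FPKM in Myod1_control and at 1274 and 607 in SunTag (148 ± 17.4 against 941 ± 472, SD, n = 2 each), with 783 and 762 in WT. It fell by 2.57 on the log2 scale (SE 0.370, adjusted p = 0.0203). Rps28 was at 152 and 135 FPKM in Myod1_control and at 911 and 502 in SunTag (log2 difference -2.23, SE 0.326, adjusted p = 0.0208). In both genes the control libraries were close to each other and far below the lower SunTag library. Rpl38, required in the mouse for normal patterning of the vertebrae, was at 136 and 122 FPKM in Myod1_control and at 820.4 and 378 in SunTag (-2.10, SE 0.379, adjusted p = 0.0260). Rpl41, the shortest member with 75 coding bases, was at 295 and 225 FPKM in Myod1_control and at 1481 and 729 in SunTag (-2.01, SE 0.378, adjusted p = 0.0276). Rps20, Rpl39 and Rpl36a had log2 differences of -2.08, -2.02 and -1.92.

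The smallest differences were in the large subunit. Rpl27a was at 185 and 177 FPKM in Myod1_control and at 279.5 and 160.0 in SunTag (log2 difference -0.22, SE 0.286, adjusted p = 0.583). Rpl10a was at 129 and 111 FPKM in Myod1_control and at 206 and 116 in SunTag (-0.36, SE 0.302, adjusted p = 0.405). In both the controls overlapped SunTag, and the difference turned to 0.18 for Rpl27a and 0.05 for Rpl10a without SunTag 1. Rpl29 and Rpl13a had differences of -0.48 and -0.63 and did not pass. In the small subunit Rps6 fell to 107 and 108 FPKM in Myod1_control, against 229 and 162 in SunTag (-0.83, SE 0.197, adjusted p = 0.0420). Rps2, at the mRNA entry, fell to 244 and 218 FPKM in Myod1_control, against 469 and 389 in SunTag (-0.88, SE 0.158, adjusted p = 0.0257).

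**Figure D3:**
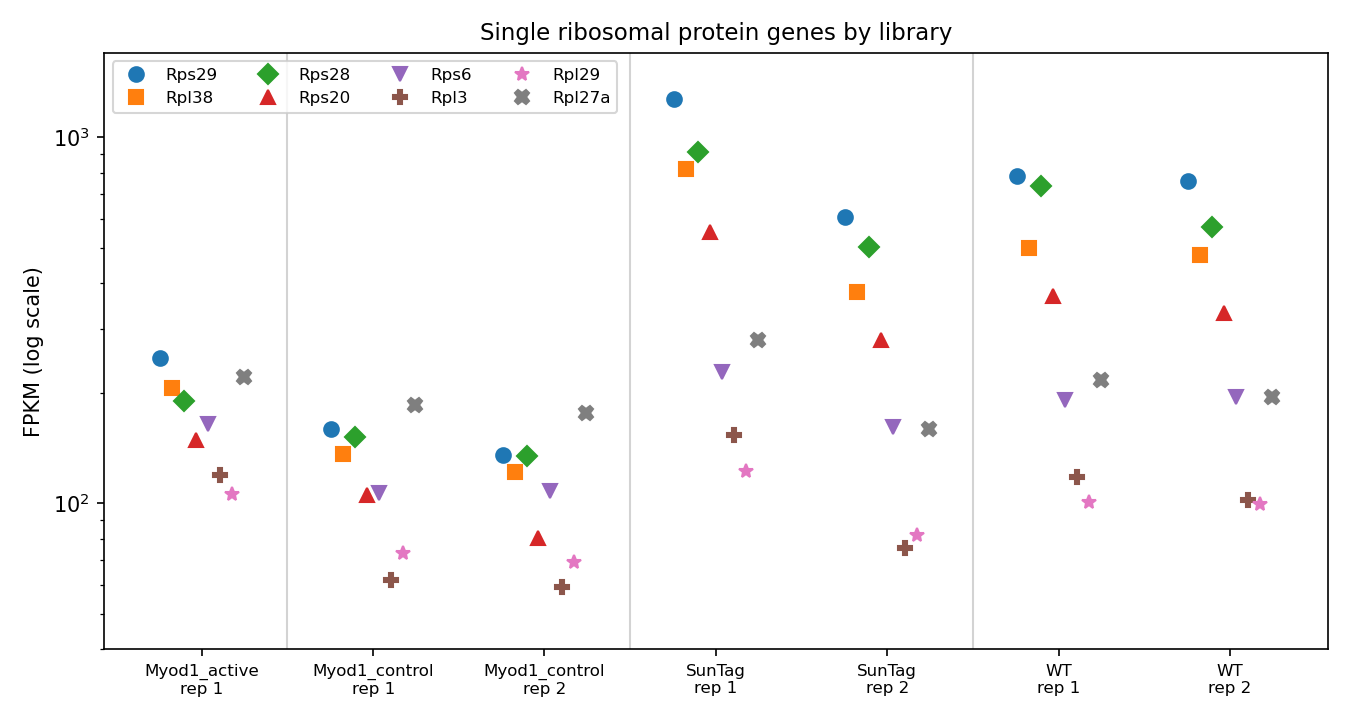
FPKM (log scale) of 8 ribosomal protein genes in each library, 1 symbol per gene. Rps29, Rpl38 and Rps28 lie between 122 and 249 FPKM in the Myod1 experiment and between 378 and 1274 in SunTag and WT, while Rpl27a lies between 160.0 and 279.5 FPKM throughout.

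The stalk proteins bind the factors that drive initiation and elongation. Rplp0, the base of the stalk, fell to 204 and 178 FPKM in Myod1_control, against 391 and 318 in SunTag (-0.88, SE 0.164, adjusted p = 0.0270). Its partners Rplp1 and Rplp2 fell by 1.40 and 1.59 on the log2 scale (adjusted p = 0.0376 and 0.0242). Rplp1 was at 355 and 338 FPKM in Myod1_control and 1255 and 672 in SunTag, and Rplp2 at 178 and 157 in Myod1_control and 649.5 and 392 in SunTag. In Myod1_active Rplp0, Rplp1 and Rplp2 were at 264, 439.9 and 245 FPKM. The difference was thus smaller in the longest of the 3, and the difference between the stalk proteins was not tested. Of the 4 members on the X chromosome, Rpl10 had a log2 difference of -0.81 (adjusted p = 0.0294), Rps4x of -1.20 (0.0450), Rpl36a of -1.92 (0.0431) and Rpl39 of -2.02 (0.0420). Rpl5 and Rpl11, which with 5S ribosomal RNA bind the p53 regulator Mdm2, had differences of -1.08 (0.0420) and -0.86 (0.0990). Rps27a, made as a fusion with ubiquitin, had a difference of -1.45 and did not pass (0.0550).

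Among the members the difference between Myod1_control and SunTag went with coding length, which ran from 75 to 1257 bases. Pearson's r of the difference with log2 coding length was 0.646 and Spearman's rho 0.636 over 76 genes, a description over genes that share the libraries. The 10 members under 300 coding bases had a median of -1.77 relative to the median gene, and all 10 were called lower. Over all tested genes of any length 17% were called lower. The median was -1.22 for the 27 members of 300 to under 450 bases (18 called), -0.89 for the 19 of 450 to under 600 bases (10 called) and -0.75 for the 20 of 600 bases or more (13 called). Other genes with a mean of 20 FPKM or more and a known coding length showed the same order, with r of 0.448 over 3084 genes and medians of -1.01, -0.80, -0.41 and 0.14 in these classes. The members' median lay below that of the other genes in each class.

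The same measure separated the SunTag libraries from each other: the log2 difference of SunTag 1 minus SunTag 2 had r of -0.506 with log2 coding length over the members. Its median was 1.04 in members under 300 coding bases and 0.71 in those of 600 or more. Over the other genes with a mean of 20 FPKM or more, this difference had r of -0.313 with length. Their medians were 0.44, 0.35, 0.19 and -0.08 from the shortest class to the longest. For Myod1_control minus WT, which shares no library with SunTag 1 minus SunTag 2, r with length over the members was 0.581. Across members these 2 differences had r of -0.305, a description over genes. For Myod1_active minus Myod1_control r with length was -0.118 over the members and -0.282 over the other genes of 20 FPKM or more. Relative to the median gene, these other genes had medians of 0.31, 0.24, 0.16 and -0.04 from the shortest class to the longest. The members had 0.35, 0.34, 0.33 and 0.29. The labels give no fragment length, and the part of the FPKM length correction in these values was not tested.

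**Figure D4:**
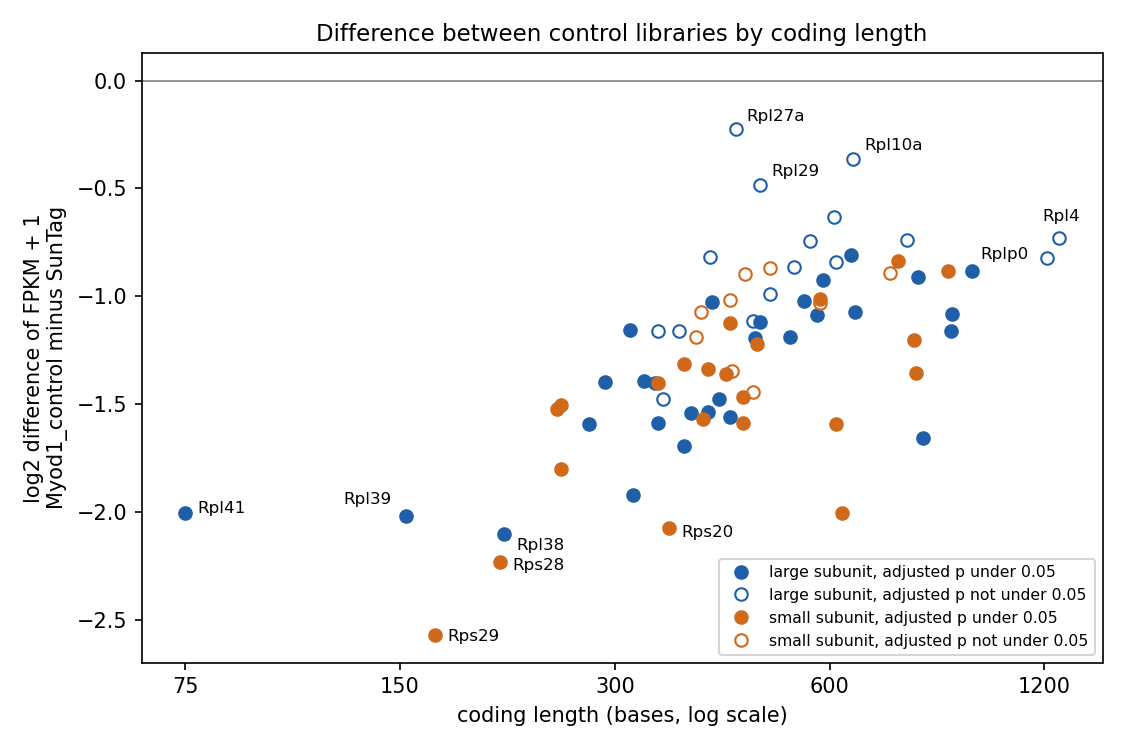
Log2 difference of FPKM + 1, Myod1_control minus SunTag, against coding length (bases, log scale) for the 76 tested ribosomal protein genes. Filled symbols have a limma adjusted p under 0.05 (51 genes). Rpl41, Rps29, Rps28, Rpl38 and Rpl39 are at the short end between -2.57 and -2.01, and every member is below 0 (Rpl27a is above 0 with quantile normalization).

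In Myod1_control minus SunTag, members with a pyrimidine tract at the start had a median of -0.94 relative to the median gene (35 genes, 21 called lower). Those without a tract had -1.06 (20 genes, 15 called lower), and 17% of all tested genes were called lower. Of the windows shown, which were chosen by their differences, Rps28, without a tract, had -2.23 and Rpl38, with a tract of 8 bases, -2.10. Rps27 (9 bases) had -1.80, Rps6 and Rpl18 (10 bases each) -0.83 and -0.74, and Rpl27a (20 bases) -0.22. Among members not shown, Rpl35 (18 bases) had -1.16 and Rpl10a (7 bases) -0.36. Coding lengths also differ, with 207 bases in Rps28 and 444 in Rpl27a. A link of tract length with the difference was not tested. In Myod1_active minus Myod1_control the medians were 0.30 with and 0.27 without a tract. Members with CCGGAAG had a median of -1.18 in Myod1_control minus SunTag (23 genes), and those without it -0.95 (32 genes), at median coding lengths of 375 and 445.5 bases.

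Other genes of the translation machinery are given from lists of the wider pathway. None was called in Myod1_active minus Myod1_control or in SunTag minus WT. In Myod1_control minus SunTag, 17% of all tested genes were lower and 7.3% higher. Of 7 tested ribosomal proteins with other names, 5 were lower in Myod1_control than in SunTag and 2 did not pass. They included Rpsa, a small subunit protein, at 56.5 and 56.9 FPKM in Myod1_control and 162 and 99.4 in SunTag (-1.15, adjusted p = 0.0356), and Gnb2l1, the scaffold RACK1, at 234 and 222 in Myod1_control and 809.7 and 423 in SunTag (-1.36, adjusted p = 0.0438). Of 16 elongation factors and other TOP mRNAs, 8 were lower and 8 did not pass, with a median of -0.62 relative to the median gene. Npm1, a nucleolar chaperone, was at 36.0 and 31.5 FPKM in Myod1_control and 131 and 72.6 in SunTag (-1.51, adjusted p = 0.0333). Eef2, which moves the ribosome along mRNA, was at 397 and 447 FPKM in Myod1_control and 487 and 504 in SunTag (-0.23, adjusted p = 0.272).

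Of 29 translation initiation factors, 13 were lower in Myod1_control and 16 did not pass (median -0.27). Of 76 mitochondrial ribosomal proteins, which serve the ribosome of the mitochondrion, 37 were lower and 39 did not pass (median -0.55). Of 32 ribosome biogenesis factors, 5 were lower, 2 were higher and 25 did not pass, with a median of 0.02, and these counts are near the 17% lower and 7.3% higher of all tested genes. Fbl, which methylates ribosomal RNA, was at 14.7 FPKM in both Myod1_control libraries and 33.3 and 29.1 in SunTag (-1.04, adjusted p = 0.0182), and Polr1b, a subunit of RNA polymerase I, at 10.3 and 7.70 in Myod1_control and 3.21 and 5.09 in SunTag (0.97, adjusted p = 0.0448). Of 17 regulators, 4 were higher, where 7.3% of all tested genes were, and 13 did not pass. Among the 4 were Myc, a transcription factor that drives ribosome production, at 22.4 and 12.6 FPKM in Myod1_control and 1.57 and 2.10 in SunTag (2.66, adjusted p = 0.0171), and Rptor, the substrate-binding subunit of mTORC1, at 15.3 and 21.6 in Myod1_control and 5.48 and 7.68 in SunTag (1.36, adjusted p = 0.0244). The other two inhibit these steps: Tsc1, part of the complex that restrains mTORC1, was at 5.93 and 7.47 FPKM in Myod1_control and 3.50 and 3.51 in SunTag (0.77, adjusted p = 0.0366). Eif4ebp2, which blocks the cap-binding factor, was at 59.7 and 58.0 FPKM in Myod1_control and 31.3 and 39.5 in SunTag (0.73, adjusted p = 0.0364). In Myod1_active minus Myod1_control the medians relative to the median gene were 0.22 for the other ribosomal proteins, 0.25 for mitochondrial ribosomal proteins, 0.12 for initiation factors, 0.10 for elongation factors and other TOP mRNAs, -0.01 for biogenesis factors and -0.11 for regulators.

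Markers of several cell types moved with the difference between Myod1_control and SunTag. Over all tested genes, 17% were lower and 7.3% higher there. Of 7 tested red cell markers 4 were lower and 1, Alas2, was higher in Myod1_control. The sum over all 8 genes of the list was 46.0 and 40.2 FPKM in Myod1_control and 6392 and 3921 in SunTag, most of the control sum being Alas2, with Hbb-b1 and Hbb-b2 at 0 in control 2. Of 8 macrophage markers 5 were lower (sums of 55.4 and 97.2 FPKM in Myod1_control, 382 and 257 in SunTag), as were 7 of 8 endothelial markers (52.1 and 54.7 in Myod1_control, 172 and 189 in SunTag). Of 9 tested lymphocyte markers 7 were lower (3.45 and 1.36 in Myod1_control, 24.5 and 12.2 in SunTag), with Trac and Nkg7 at 0 in both controls; these sums are over all 12 genes of the list. Of 7 stellate cell markers 4 were lower (26.1 and 17.7 in Myod1_control, 124 and 70.2 in SunTag). Of 7 hepatocyte markers 1, Cps1, was higher and 6 did not pass. In Myod1_active minus Myod1_control no marker of these lists was called, and of 3 tested skeletal muscle markers 1, Myod1 itself, was higher. There the sums in the activated library were 130 FPKM for macrophage, 36.6 for endothelial, 39.9 for red cell and 8.20 for lymphocyte markers. Single genes carried the macrophage and lymphocyte sums. Lyz2 was at 87.3 FPKM in Myod1_active and 16.1 and 54.9 in Myod1_control, while the Kupffer cell marker Clec4f was at 9.05 in Myod1_active and 11.4 and 13.3 in Myod1_control. Cd4 was at 7.38 FPKM in Myod1_active and 2.90 and 0.20 in Myod1_control. The part of other cell types in the levels of the ribosomal protein genes was not tested.

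**Figure D5:**
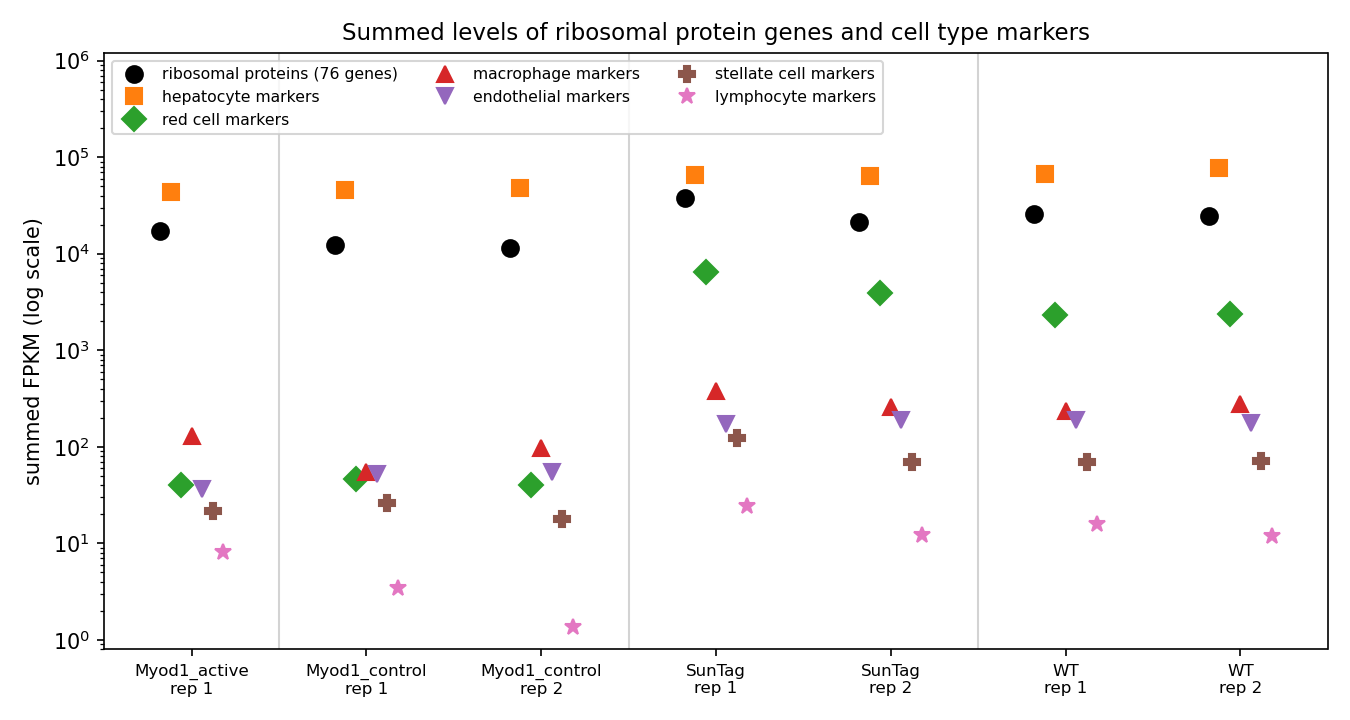
Summed FPKM (log scale) of the 76 ribosomal protein genes and of 6 lists of cell type markers in each library. The red cell sum is 39.9 to 46.0 FPKM in the Myod1 experiment and 2337 to 6392 in SunTag and WT, while the ribosomal protein sum runs from 11387 to 38009 FPKM.

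Reads that could belong to other rows limit single values. Rows overlapped 41 of the 76 genes, 29 of them with a small RNA. The 35 genes without such a row had a median log2 difference of -1.34 between Myod1_control and SunTag. Of these 26 were called lower, where 17% of all tested genes were. Between Myod1_active and Myod1_control the median of the 35 genes was 0.57. The tables also held 163 pseudogene rows named after ribosomal proteins, whose sum was 16.1% to 17.1% of the members' sum in each library, so single genes with such copies are uncertain. The row of Rpl24 spans 42639 bases and its gene ID belongs to Zbtb11 in GENCODE M21, so its value is uncertain as well.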

How the data were processed

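RNA-seq of 7 mouse liver libraries in 4 groups was analysed. Tools named in the submitters' processing notes are cutadapt 1.11, TopHat2 2.1.1 and Cufflinks 2.2.1, with mm9 as build. The sources used here give no annotation, strand or read length. The authors deposited FPKM per gene, 1 table per library, per the file headers. Counts and library sizes are unknown, so no counting interval is given. The deposited FPKM were used as given. Rows with a failed status in any library (343) were left out, rows sharing a symbol (244 symbols) were summed, and genes with an FPKM of 1 or more in at least 1 library (15744) were tested on the log2(FPKM + 1) scale by limma 3.58.1 (R 4.3.3). The fit had 1 mean per group over all 7 libraries (3 residual and 1.93 prior degrees of freedom), an empirical Bayes variance with a mean trend, two-sided tests and Benjamini-Hochberg adjustment over all genes, at a threshold of 0.05. It was tested on simulated data. Log2 differences on this scale understate the change of low genes. Between 32 and 38 members per library lay outside their own deposited bounds, so those bounds were not used as errors. Any 2 tables shared at most 1 identical value. Coding lengths are from GENCODE M21, and promoters from RefSeq (GRCm38.p6), which are not the mm9 of the tables. The members and lists were chosen with earlier results of these data known. Named were members with the 4 largest and smallest differences per subunit and comparison, the highest and lowest levels, members near 0, stalk proteins, paralogs, X-linked members, Rps6, Rps27a and Rpl18, and some members of each list; Rpl5, Rpl11, Rpl24 and Eef2 were named after their values were seen. Some genes that the naming rule takes are not reported here. Alternatives covered the pseudocount, filters, scaling, short genes, the groups fitted, replicate numbers and each library left out.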

Additional observations from a re-analysis of the deposited data

How the results depend on the processing

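In Myod1_active minus Myod1_control and in SunTag minus WT 0 members were called by limma under each alternative run, which does not show that the levels were equal. In Myod1_control minus SunTag the count of 51 became 19 with no filter on low values, 30 with median-ratio scaling, 25 with quantile normalization and 0 when the 2 groups were fitted alone, and lay between 0 and 75 with 1 library left out. It was 53, 53, 39 and 66 with a pseudocount of 0.1, a filter on the mean, rescaling to a fixed sum and short genes left out. With fewer libraries the spread rests on fewer degrees of freedom; otherwise the cause was not tested. With 1 library left out, the members' median relative to the median gene lay between -0.2542 and 0.5383 for SunTag minus WT and between -1.5106 and -0.7099 for Myod1_control minus SunTag. For Myod1_active minus Myod1_control it lay between 0.2596 and 0.3596, and leaving out the activated library itself leaves no comparison.

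Under median-ratio scaling 3 differences of Myod1_active minus Myod1_control turned negative: Rpl27a (-0.0351), Rps19 (-0.0226) and Rps9 (-0.0016). With 1 library left out, SunTag minus WT ran from -0.2056 to 1.1604 for Rpl39, -0.2805 to 0.0731 for Rpl6, -0.1258 to 0.9075 for Rps14 and -0.0083 to 0.8280 for Rps27l. Myod1_control minus SunTag ran from -0.7727 to 0.0479 for Rpl10a and -0.6243 to 0.1768 for Rpl27a, which was 0.2041 with quantile normalization.

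Replicate numbers did not pair the libraries (correlations of the deviations 0.043, 0.034 and 0.00076). With the replicate block 0, 0 and 45 members were called in the 3 comparisons. The members' median relative to the median gene was 0.15, 0.13 and -1.05.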
